A study of Homo sapiens with 14 samples.

Results

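The mRNA levels of 10 genes of the nuclear lamina and inner nuclear membrane were followed in IMR90 cells, primary human fetal lung fibroblasts. The genes were the lamins LMNA, LMNB1 and LMNB2, the membrane proteins LBR, EMD, TMPO, LEMD3, SUN1 and SUN2, and the chromatin-bound partner BANF1, taken as a list by name out of 54628 gene rows in the knockdown tables and 57792 genes in the old and young tables. Poly(A)-selected RNA was sequenced in 7 groups. I79 young and I10 young are proliferating cells of 2 IMR90 isolates, and I79 old and I10 old are the same isolates passaged until they entered replicative senescence. I79 ICM is isolate I79 given inflachromene, a compound that binds HMGB1 and HMGB2, proteins of chromatin. WT is wild type, and HMGB2 KD carries a knockdown of HMGB2 made with siRNA, with the isolate and the transfection state of WT not given in the sources used here. All groups are cultures of IMR90 cells. The old and young groups had 1 deposited column each, so that the isolates served as replicates, while ICM, WT and HMGB2 KD had 2 libraries each.

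The nuclear lamina is a mesh of lamin filaments under the inner nuclear membrane that holds the shape of the nucleus and tethers heterochromatin. B-type lamins (LMNB1, LMNB2) stay farnesylated and bound to the membrane, whereas LMNA gives lamin A, which loses its farnesylated tail through the protease ZMPSTE24, and lamin C, which never has one. LBR tethers heterochromatin to B-type lamins, emerin (EMD), LAP2 (TMPO) and MAN1 (LEMD3) share a LEM domain that binds the small DNA-bridging protein BAF (BANF1), and SUN1 and SUN2 reach across the envelope to the nesprins (SYNE genes) to link nucleus and cytoskeleton. Loss of lamin B1 is widely used as a marker of senescent fibroblasts.

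The ends of the coding sequences of the B-type lamins are shown because both end in the box that receives the farnesyl group. They were read from GRCh37 through the GENCODE annotation, and each is printed 5′ to 3′ on the coding strand. The capitals mark the last 4 codons before the stop, which encode that box.
lamin B1: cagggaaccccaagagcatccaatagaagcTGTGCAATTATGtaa
lamin B2: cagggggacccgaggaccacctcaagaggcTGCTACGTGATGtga

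The libraries held between 10971132 and 41168932 reads, counts or estimated counts. All 10 fibroblast markers stood at 1 CPM (counts scaled to 1e6 per library) or more in every column. Of the markers of other cell types, at most 3 of 6 epithelial, 2 of 4 endothelial and 2 of 4 immune genes reached 1 CPM in any column, with summed levels of 48.7 to 102.7, 0.365 to 9.86 and 21.6 to 157.8 CPM. Those that reached it in the old, young, WT and HMGB2 KD columns were KRT8 (11.2 to 31.9 CPM), KRT18 (17.3 to 79.3), KRT19 (0.161 to 7.30), VWF (0.365 to 2.82), KDR (0 to 8.25), CD14 (0 to 1.31) and CD68 (21.4 to 157.8), while SFTPC, CDH5 and CD3E were at 0 there. The knockdown target was low where the labels put the knockdown: HMGB2 stood at 27.1 and 27.3 CPM in the WT libraries, against 3.22 and 3.64 CPM in HMGB2 KD (log2 fold change -2.99 with SE 0.16, and an edgeR quasi-likelihood adjusted p of 8.28e-07). Between old and young it fell by 1.64 on the log2 scale (adjusted p 0.00357, SE 0.10).

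The first comparison asked which of these genes changed between proliferating and replicatively senescent cells. 5 of the 10 genes changed. LMNB1, TMPO, LMNB2 and LBR fell and SUN1 rose, whereas LMNA, EMD, LEMD3, SUN2 and BANF1 did not pass the thresholds, set at 0.01 for the adjusted p and 0.6 for the size of the log2 fold change in edgeR's quasi-likelihood test. Over all 15115 genes tested, 9.57% passed, with 5.75% up and 3.82% down in old cells. Old and young columns did not overlap for 74% of them. The median log2 fold change was -0.44 over the 10 genes and -0.01 over all genes. In bulk RNA, fewer cells that express a gene and less of its RNA per cell cannot be told apart.

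**Figure D1:**
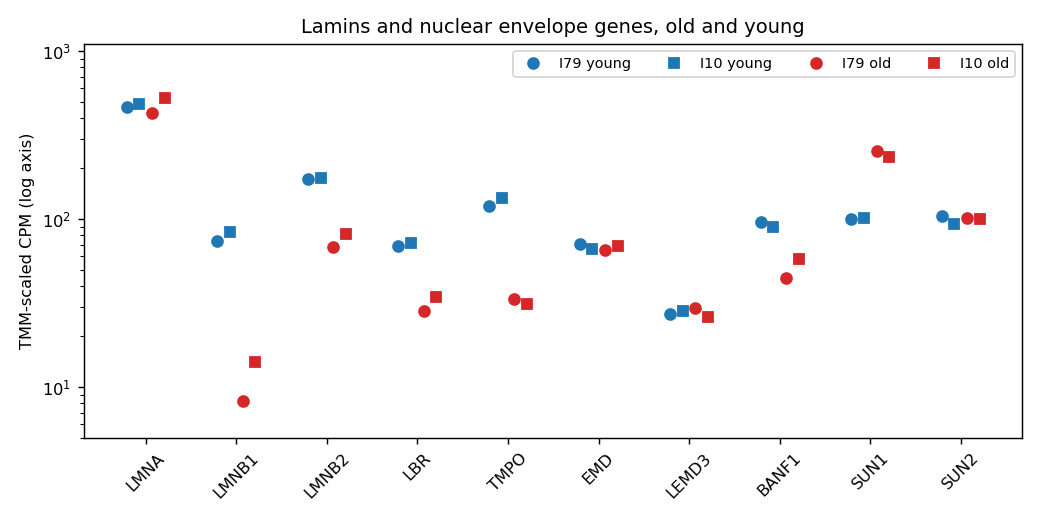
TMM-scaled CPM (log axis) of the 10 genes in the 4 old and young columns, with blue for young, red for old, circles for I79 and squares for I10. LMNB1 drops from between 73.9 and 84.1 CPM to between 8.30 and 14.04 CPM, SUN1 rises above 200 CPM, and the LMNA, EMD, LEMD3 and SUN2 points of old and young overlap.

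Among the lamins, LMNB1 (lamin B1; chromosome 5, 126112315 to 126172712, plus strand, GRCh37) had 1154 estimated counts in the young and 153 in the old column of I79, and 1612 and 254 in those of I10. After scaling for library size and composition with TMM these were 73.9 and 8.30 CPM in I79, and 84.1 and 14.04 CPM in I10. Both old columns lay below both young columns. The log2 fold change of old against young was -2.86 (adjusted p 0.00357, SE 0.18), a 7.24-fold difference. Ordered from the lowest log2 fold change upwards, LMNB1 was number 189 of the 15115 genes. The fall was -3.15 in I79 alone (95% exact counting interval -3.41 to -2.91) and -2.58 in I10 alone (-2.78 to -2.39), and the difference between isolates was not tested.

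LMNB2 (lamin B2; chromosome 19, 2427636 to 2456957, minus strand), the other B-type lamin, stood at 174.0 in the young and 67.9 in the old column of I79, and 175.2 and 81.2 CPM in those of I10. The young columns lay above the old columns and nearly coincided. It fell by 1.23 on the log2 scale (adjusted p 0.00512, SE 0.11), 2.35-fold. LMNA (lamins A and C; chromosome 1, 156052364 to 156109872, plus strand) stood at 461.6, 426.8, 486.5 and 522.5 CPM in the same order. Its old and young columns overlapped, with I79 lower and I10 higher in old cells, and its log2 fold change was -0.0050 (adjusted p 0.980, SE 0.13).

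The composition of the lamin mRNA pool is given without a test. Per length, as deposited TPM (a transcript level corrected for length), LMNA made up 75.2% and 74.9% of the TPM of the 3 lamins in I79 young and I10 young, and 91.4% and 91.3% in I79 old and I10 old. LMNB1 went from 11.8% and 12.6% in the young columns to 1.65% and 2.26% in the old columns. LMNB2 went from 12.999% and 12.5% to 6.98% and 6.43%. In young cells LMNB1 and LMNB2 were thus at like levels per length, at 57.8 and 63.4 TPM in I79 young and 65.6 and 65.4 TPM in I10 young. In old cells LMNB1 was the lowest of the 10 genes, at 5.29 TPM in I79 old and 9.01 TPM in I10 old, where LEMD3 was next at 9.13 TPM. LMNA was the highest of the 10 in every column, between 293.0 and 390.6 TPM.

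Of the membrane proteins that bind lamins and chromatin, TMPO (LAP2; chromosome 12, 98909357 to 98944129, plus strand) fell most. It stood at 119.8 in the young and 33.6 in the old column of I79, and 133.5 and 31.4 CPM in those of I10. The log2 fold change was -1.96 (adjusted p 0.00357, SE 0.12), 3.89-fold, with all old values below all young ones. LBR (lamin B receptor, also a sterol reductase; chromosome 1, 225589204 to 225616627, minus strand) stood at 68.9, 28.4, 71.9 and 34.3 CPM in the same order, and fell by 1.17 on the log2 scale (adjusted p 0.00552, SE 0.11). With length-scaled TPM in place of estimated counts LBR was not called (log2 fold change -0.98, adjusted p 0.0107).

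EMD (emerin; chromosome X, 153607633 to 153609934, plus strand) stood between 66.1 and 71.1 CPM in young cells and between 65.4 and 69.4 CPM in old cells. LEMD3 (MAN1; chromosome 12, 65563363 to 65642135, plus strand) stood between 27.1 and 28.2 CPM in young cells and between 26.0 and 29.6 CPM in old cells. For both, old and young columns overlapped and the adjusted p was 0.873 and 0.977. BANF1 (BAF; chromosome 11, 65769699 to 65771620, plus strand), the partner of the LEM domain, stood at 95.4 in the young and 44.6 in the old column of I79, and 89.4 and 57.6 CPM in those of I10. Its old columns lay below its young columns, but the log2 fold change of -0.86 (SE 0.14) had an adjusted p of 0.0153 and was not called. It was called by DESeq2 (-0.87, adjusted p 9.93e-04), without a filter on low counts, with length-scaled TPM and with plain library totals. With the looser threshold of 0.05 on the adjusted p BANF1 was called as well.

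Of the 2 SUN genes SUN1 was called and SUN2 was not, and the difference between them was not tested. SUN1 (chromosome 7, 856252 to 936072, plus strand) stood at 100.3 in the young and 255.0 in the old column of I79, and 101.0 and 232.6 CPM in those of I10. The young columns were within 1 CPM of each other and both old columns were above them. SUN1 rose by a log2 fold change of 1.27 (adjusted p 0.0046, SE 0.11), 2.42-fold. SUN2 (chromosome 22, 39129295 to 39190148, minus strand) stood at 104.5, 100.9, 93.3 and 99.98 CPM in the same order, with overlapping columns and a log2 fold change of 0.024 (adjusted p 0.872, SE 0.10), which was -0.19 under plain library totals. TMPO overlaps 2 annotated genes on the other strand, SUN1 overlaps the protein-coding gene GET4 and SUN2 overlaps GTPBP1 and DNAL4, and whether the counting used strand is not given in the sources used here. In TPM, SUN1 was between 66.0 and 70.6 in young cells and between 132.9 and 157.4 in old cells, where it was second to LMNA among the 10 genes.

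The genes of proliferating cells moved with these changes. Of 13 such markers, among them MKI67, TOP2A and CCNB1, 12 were called lower and 0 higher (1 not called; all 13 had an unadjusted p under 0.05), with a median log2 fold change of -2.20. Their summed level was 1319 and 1461 CPM in I79 young and I10 young and 243.2 and 425.7 CPM in the old columns. Some markers of other cell types also differed between the young and old columns. CD68, a lysosomal gene on the immune list, was at 21.4 CPM in the young and 157.8 in the old column of I79, and at 23.2 and 84.5 CPM in those of I10. KRT18 was at 54.8 and 17.3 CPM in I79 and 58.5 and 28.4 CPM in I10, and KRT19 at 2.94 and 1.52 CPM in I79 and 7.30 and 1.27 CPM in I10. VWF was at 0.448 and 2.82 CPM in I79 and 0.365 and 2.49 CPM in I10, and KDR at 0.192 and 4.39 CPM in I79 and 0 and 0.0553 CPM in I10. The part of these markers in the changes of LMNB1, TMPO, LMNB2, LBR and SUN1 was not tested.

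The promoters of the 2 genes that fell most, LMNB1 and TMPO, are shown because cell cycle genes carry recurring promoter elements. Each is the 250 bases upstream of 1 RefSeq start of the gene, on the gene's strand. Capitals mark matches on either strand to the CHR (cell cycle genes homology region), spelled TTTGAA, to the CCAAT box, or to an E2F-like element. The first spelling accepted for the E2F-like element was TTCCCGC. The second spelling that was accepted was TTGGCGC. The third spelling that was accepted was TTCGCGC. The fourth spelling that was accepted was TTGCCGC. Read on the other strand, a CCAAT match can overlap the spelling TTGGCGC, which happened in neither promoter shown. The LMNB1 promoter lies at chr5:126776373-126776622 (plus strand) and the TMPO promoter at chr12:98515323-98515572 (plus strand), both in GRCh38.p14 coordinates.
LMNB1: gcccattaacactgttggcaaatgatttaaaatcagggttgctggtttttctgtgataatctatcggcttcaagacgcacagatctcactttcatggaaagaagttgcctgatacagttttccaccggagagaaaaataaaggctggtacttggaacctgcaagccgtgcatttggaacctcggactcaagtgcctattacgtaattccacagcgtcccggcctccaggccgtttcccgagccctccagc
TMPO: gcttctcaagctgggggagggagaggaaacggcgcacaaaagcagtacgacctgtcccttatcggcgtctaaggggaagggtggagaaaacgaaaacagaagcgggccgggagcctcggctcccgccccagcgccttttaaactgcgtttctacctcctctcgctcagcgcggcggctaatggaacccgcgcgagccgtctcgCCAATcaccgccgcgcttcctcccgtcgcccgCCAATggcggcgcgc
The LMNB1 window held no match and the TMPO window 2 CCAAT. The LMNB1 window lies at the most upstream start of the gene (126112315 in GRCh37). The lamin B1 transcript ENST00000261366 starts further downstream, at 126112828, and the bases just before that start were not searched. Of the other genes that fell, LMNB2 had 1 CHR match and LBR none. Over 27305 promoters of the same length, 13.6% held a CHR match, 33% a CCAAT match and 11% an E2F-like match. The genes that did not pass the thresholds also held matches, 2 CCAAT in EMD, 1 CHR and 2 CCAAT in SUN2, 1 CCAAT and 1 E2F-like each in LMNA and LEMD3, and 1 E2F-like in BANF1. The LMNA window lies at the upstream start used by ENST00000368301 (156052369 in GRCh37), which held at most 2.49% of LMNA estimated counts. The lamin A transcript ENST00000368300, which held 34.7% to 43.9%, starts at 156084502, and the bases just before that start were not searched. The SUN1 promoter was not analysed here. A match is a description of the letters and not a site in use.

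The LMNA transcripts were examined apart, since lamin A and lamin C come from the same gene. The old and young tables listed 23 LMNA transcripts, and 6 of them held at least 1% of the gene's estimated counts in any column. Those with the full lamin A end and those with the lamin C end are given here, with the retained intron transcript ENST00000498722, which held 0.422% and 1.06% in I79 young and old and 0.708% and 0.753% in I10 young and old (log2 fold change 0.70 with SE 0.49, not called). The full lamin A end (ENST00000368300 and ENST00000361308) held 40.6% of the LMNA estimated counts in I79 young (exact 95% counting interval 39.4 to 41.7), 47.7% in I79 old (46.6 to 48.8), 41.8% in I10 young (40.8 to 42.8) and 43.8% in I10 old (42.8 to 44.8). The share was higher in old cells of both isolates, by 7.08 percentage points in I79 and 2.04 in I10. In the GENCODE v44lift37 sequences ENST00000368300 has 0 stretches of 31 bases, of 3148, that occur in none of the other LMNA transcripts listed. The deposited lengths differ from that annotation for some of them, at 3190 against 3178 bases for ENST00000368300 and 1713 against 2465 for ENST00000361308. How far its estimate rests on reads shared with others was therefore not tested.

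The lamin C end was held by ENST00000368297, which starts at another first exon (chromosome 1, 156095980 to 156107656), and by ENST00000368301. Together they held 25.9% in the young and 20.5% in the old column of I79, and 22.5% and 22.4% in those of I10. The lamin C transcript of the MANE Plus Clinical set, ENST00000677389, has 0 rows in these tables, and its part in the estimate was not tested. The change from young to old was -5.44 points in I79 and -0.11 in I10, so that the isolates differed by more than the mean change. None of the 46073 transcripts tested was called by edgeR (0%; 6910 had an unadjusted p under 0.05), so the 0 called of 7 LMNA transcripts tested says nothing of their stability. Of these 7, 0 had an unadjusted p under 0.05, and DESeq2 called 0 LMNA transcripts and 3431 in all. The log2 fold changes were 0.17 (SE 0.09) for ENST00000368300 and -0.24 (SE 0.17) for ENST00000368297.

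**Figure D2:**
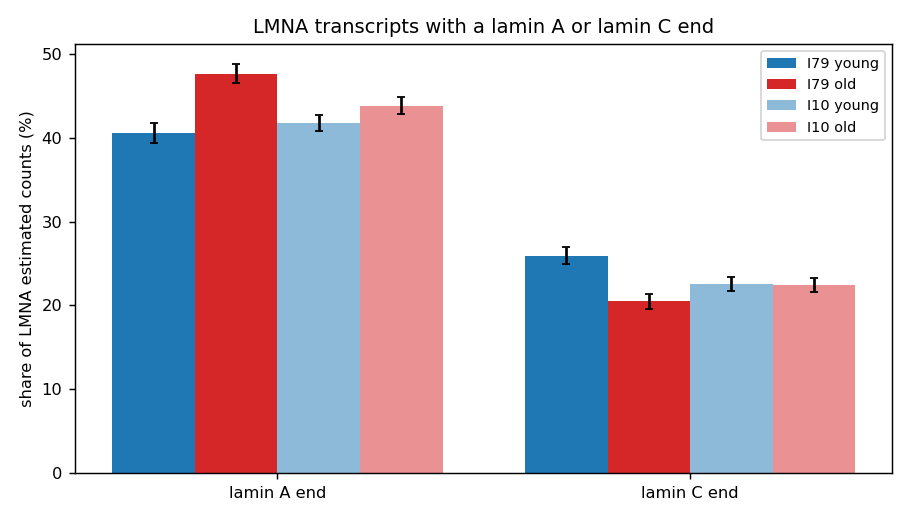
Share of LMNA estimated counts (%) held by transcripts with the full lamin A end or the lamin C end in the old and young columns. The lamin A bars cover ENST00000368300 and ENST00000361308 only. Bars start at 0 and error bars are exact 95% counting intervals. The lamin A bars run from 40.6% to 47.7% and the lamin C bars from 20.5% to 25.9%.

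TMPO also gives several LAP2 proteins by splicing. The membrane form LAP2beta (ENST00000556029) held 53.1% in the young and 54.7% of the gene's estimated counts in the old column of I79, and 55.1% and 59.4% in those of I10. LAP2alpha (ENST00000266732), which has no membrane anchor and binds lamins A and C inside the nucleus, held 35.6%, 30.7%, 32.9% and 29.3% in the same order. Both had fewer estimated counts in old cells, with 995 and 338 in I79 and 1410 and 337 in I10 for LAP2beta, and 666 and 190 in I79 and 841 and 167 in I10 for LAP2alpha. The log2 fold changes were -1.90 (SE 0.12) and -2.16 (SE 0.15), and neither was called (adjusted p of 0.265 for both). Of 8 TMPO transcripts tested, 4 had an unadjusted p under 0.05.

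The knockdown comparison set HMGB2 KD against WT. As the isolate and transfection state of WT are not given, other differences between them cannot be told apart from loss of HMGB2. Of the 10 genes 1 was called. SUN2 rose, and 5.2% of the 15338 genes tested were called, 2.86% higher and 2.34% lower. The median log2 fold change was 0.15 over the 10 genes and 0.00184 over all genes. LMNB1, which fell most between young and old cells, was at a log2 fold change of -0.038 here. WT did not start from the level of young cells. Scaled over genes shared by all groups, LMNB1 was at 22.8 and 21.1 CPM in WT and at 84.2 CPM in I79 young, with different ways of counting.

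SUN2 stood at 67.0 CPM in both WT libraries and at 92.4 and 117.3 CPM in HMGB2 KD (67.0 ± 0.011 and 104.9 ± 17.6 CPM, SD, n = 2). Its libraries did not overlap. The log2 fold change was 0.65 with SE 0.14, and edgeR's adjusted p was 0.00797. This call sits at the threshold: it was lost without HMGB2 KD replicate 2 (0.47, adjusted p 0.0495), without WT replicate 1 (0.64, adjusted p 0.0416) and without WT replicate 2 (0.64, adjusted p 0.031), and with plain library totals (0.58) or 1 factor of unwanted variation (0.58). Libraries did not overlap for 53.8% of all genes tested.

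LMNB1 stood at 20.97 and 19.4 CPM in WT (718 and 726 counts) and at 19.0 and 20.4 CPM in HMGB2 KD (695 and 812 counts). The libraries overlapped, and the adjusted p was 0.913 (SE 0.14). TMPO stood at 42.1 and 44.2 CPM in the WT libraries and 32.3 and 29.4 CPM in the knockdown libraries, without overlap. Its log2 fold change was -0.49 (SE 0.13) with an adjusted p of 0.0291, short of both thresholds. LMNA stood at 391.9 and 423.3 CPM in the WT libraries and 447.3 and 638.8 CPM in the knockdown libraries, and its log2 fold change of 0.41 (SE 0.17) had an adjusted p of 0.148, with values from 0.14 without HMGB2 KD replicate 2 to 0.64 without HMGB2 KD replicate 1 (adjusted p 0.0186). HMGB2 KD replicate 2 was higher than replicate 1 for LMNA, LMNB2 (130.1 against 92.7 CPM), EMD (64.1 against 51.05 CPM) and SUN2. LMNB2, LBR, EMD, LEMD3, BANF1 and SUN1 had log2 fold changes between -0.14 and 0.20, with SEs between 0.12 and 0.15 and adjusted p between 0.414 and 0.709.

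**Figure D3:**
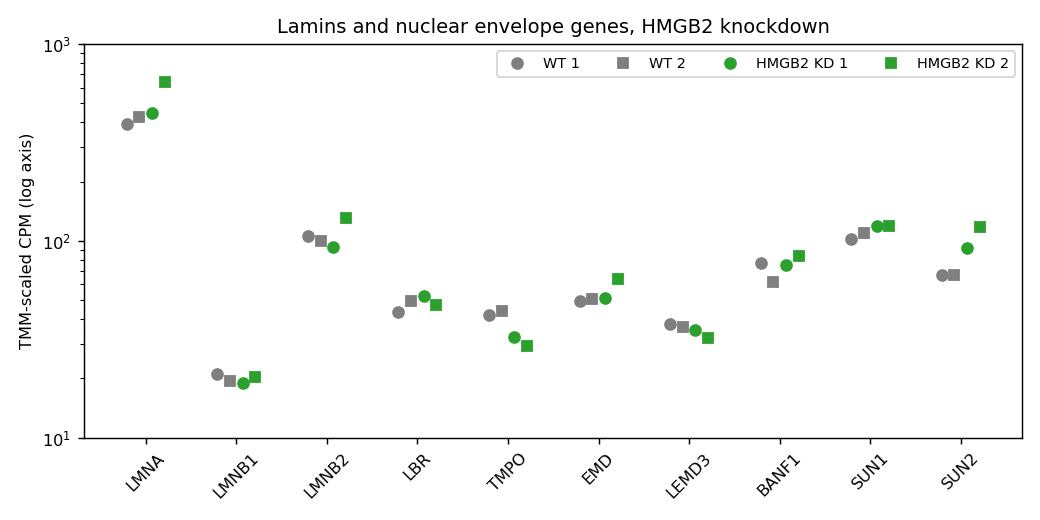
TMM-scaled CPM (log axis) of the 10 genes in the WT (grey) and HMGB2 KD (green) libraries, with circles for replicate 1 and squares for replicate 2. SUN2 is at 67.0 CPM in both WT libraries and at 92.4 and 117.3 CPM in HMGB2 KD, and the LMNB1 libraries overlap.

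The 13 markers of proliferating cells were at summed levels of 315.5 and 323.9 CPM in the WT libraries and 311.7 and 321.1 CPM in the knockdown libraries, and 0 of the 13 were called by edgeR (0 with an unadjusted p under 0.05). The libraries of this comparison were counted in another way than the old and young columns. There the sums were 1319 and 1461 CPM in I79 young and I10 young, and 243.2 and 425.7 CPM in I79 old and I10 old.

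**Figure D4:**
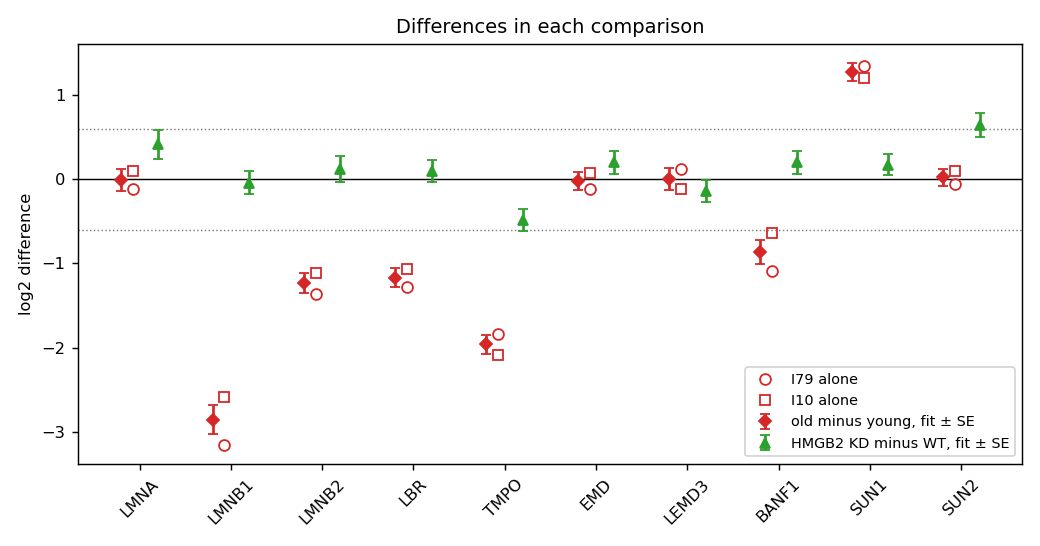
Log2 differences of the 10 genes between old and young cells (red diamonds, fit over both isolates with SE, and open symbols for each isolate alone) and between HMGB2 KD and WT (green triangles with SE). Dotted lines mark -0.6 and 0.6. LMNB1 is at -2.86 between old and young and at -0.038 in the knockdown, and SUN1 is at 1.27 and 0.17.

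The other genes of the nuclear envelope were followed as a list of 25, covering the nesprins, further inner membrane proteins, regulators of BAF, lamin processing enzymes and membrane sealing factors. Between old and young cells 24 were tested, 1 was called higher, 1 lower and 22 were not called, near the 9.57% called among all genes, with a median log2 fold change of -0.037. The called genes were the nesprins SYNE3 and SYNE2. SYNE3 (nesprin 3) rose, with 10.2 CPM in the young and 33.7 CPM in the old column of I79 and 12.3 and 38.1 CPM in those of I10 (log2 fold change 1.68, adjusted p 0.00423, SE 0.13). SYNE2 (nesprin 2) fell, with 27.5 and 11.6 CPM in I79 and 29.4 and 9.34 CPM in I10 (-1.45, adjusted p 0.00708, SE 0.17). In the knockdown 22 were tested, SYNE3 was called higher, 0 were called lower and 21 were not called, near the 5.2% called among all genes. SYNE3 stood at 4.12 and 4.90 CPM in the WT libraries and 7.81 and 10.7 CPM in the knockdown libraries (1.03, adjusted p 0.00774, SE 0.22), a call lost without HMGB2 KD replicate 2 or WT replicate 1.

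None of the lamin processing enzymes was called in either comparison (edgeR, 0 of 5 between old and young with 1 at an unadjusted p under 0.05, and 0 of 4 tested in the knockdown with 1). ZMPSTE24, the protease of prelamin A, stood at 74.7 in the young and 47.4 in the old column of I79, and 75.8 and 72.2 CPM in those of I10. ICMT, which methylates the farnesylated end, stood at 109.8, 71.8, 104.9 and 99.3 CPM. Both were thus lower in I79 old than in the other columns, with adjusted p of 0.160 and 0.154 over both isolates. FNTA, the alpha subunit of farnesyltransferase, was at a log2 fold change of 0.34 (adjusted p 0.059, SE 0.10), its beta subunit FNTB at -0.11, and RCE1, which trims the farnesylated end, at -0.44. In the knockdown ZMPSTE24, ICMT, RCE1 and FNTA had log2 fold changes of 0.12, 0.090, 0.38 and -0.055, and FNTB had under 0.1 CPM in every library and was not tested.

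The genes most like LMNB1 were found by the Euclidean distance over 3 log2 differences, old minus young in I79, old minus young in I10 and HMGB2 KD minus WT, among 12775 genes tested in both fits. The nearest were NRIP2 (distance 0.165), ZSWIM8-AS1 (0.298), TAF9B (0.333), CRISPLD1 (0.360) and CLSPN (0.371). The log2 differences of NRIP2 were -3.17 in I79, -2.72 in I10 and 0.029 in the knockdown.

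For ICM-treated cells no test was run, since the tables were counted in another way from those of I79 young. Ratios of CPM over genes shared by all tables (prior count 2) are given with the ratio of WT to I79 young, which crosses tables as well without ICM, as the background. Both ratios share the I79 young column. 7 of the 10 genes lay under -0.6 in ICM and 0 over 0.6, against 30% of 14401 genes under -0.6 and 30.7% over 0.6 (60.7% in all). In WT 5 of the 10 genes lay under -0.6 and 0 over 0.6, against 23.8% and 20.2% of all genes (44% in all). The median over the 10 genes was -1.14 in ICM and -0.61 in WT, with all-gene medians of -0.01 and -0.02.

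In the ICM libraries LMNB1 had 10 and 2.5 reads, or 0.777 and 0.235 CPM, against 84.2 CPM in I79 young and 22.8 and 21.1 CPM in WT on the same scale. Its log2 ratio without a prior count, with both ICM libraries pooled to 12 reads, was -7.37 (exact 95% counting interval -8.32 to -6.56), and that of WT was -1.94 (-2.06 to -1.83). TMPO had 11.3 and 10.2 CPM in ICM, 136.6 CPM in I79 young and 45.7 and 47.9 CPM in WT, with log2 ratios of -3.66 for ICM and -1.54 for WT.

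The remaining genes lay nearer to the background. The log2 ratios of ICM and of WT to I79 young were -1.70 and -0.64 for LBR, -1.42 and -0.84 for LMNB2, -1.41 and -0.71 for SUN2, -0.87 and -0.54 for BANF1, and -0.67 and 0.38 for LEMD3. LMNA (-0.33 and -0.25), EMD (-0.31 and -0.58) and SUN1 (-0.053 and 0.0022) were within 0.6 in both. SUN1, the gene that rose between young and old cells, thus stood at 108.4 and 112.0 CPM in ICM and at 114.3 CPM in I79 young, against 258.8 CPM in I79 old on the same scale. The 13 markers of proliferating cells summed to 43.4 and 41.9 CPM in the ICM libraries, and their part was not tested.

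The share of each lamin within the 3 lamin genes needs no scaling between libraries, though it is not per length and still carries the way each table was counted. LMNB1 held 10.4% and 11.3% of lamin counts in I79 young and I10 young, 1.65% and 2.27% in I79 old and I10 old, 4.05% and 3.59% in WT, 3.40% and 2.58% in HMGB2 KD, and 0.157% and 0.0384% in the ICM libraries (exact 95% intervals 0.0751 to 0.288 and 0.00465 to 0.139, counting error only). LMNA held 65.1% and 65.2% in the young columns, 84.9% and 84.6% in the old columns, 75.6% and 78.1% in WT, 80.0% and 80.9% in HMGB2 KD, and 85.0% and 84.9% in ICM. A share also moves with the counts of the other lamins. Between WT and HMGB2 KD the log2 fold change was -0.038 for LMNB1 and 0.41 for LMNA, and neither was called.

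**Figure D5:**
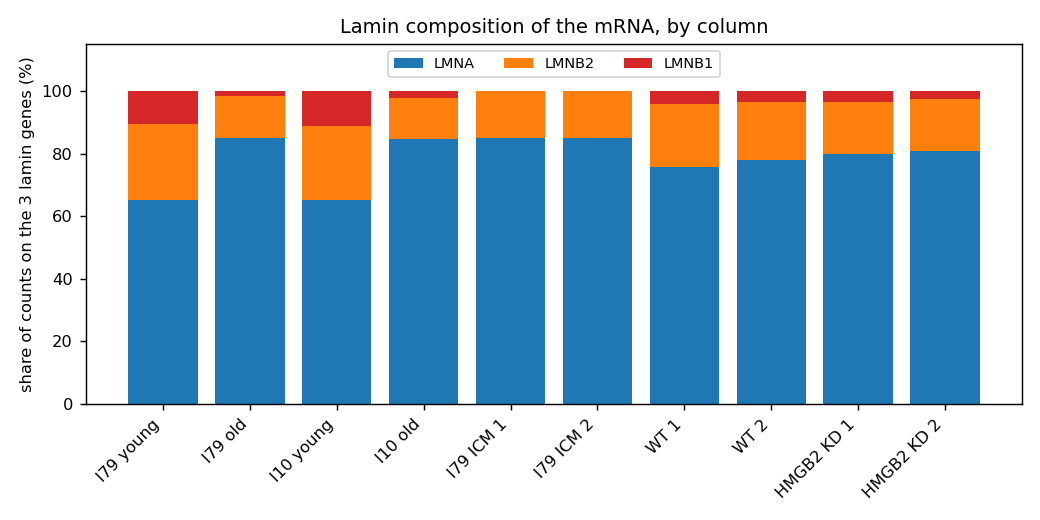
Share of the counts on LMNA, LMNB2 and LMNB1 (%, stacked to 100) in each of the 10 columns. LMNB1 (red) is 10.4% and 11.3% in the young columns, 1.65% and 2.27% in the old columns and under 0.2% in both ICM libraries.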

How the data were processed

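RNA-seq of IMR90 cells was taken as deposited. For the knockdown comparison raw counts per gene were deposited by the authors (the labels name STAR 2.6.0c, featureCounts and GRCh37, but the tables end with htseq-style summary rows of 16.9% to 18.0%, left out here). For old and young cells the authors deposited estimated counts and TPM per transcript, 1 column a group, whose software and pooling are not given in the sources used here. For ICM the authors deposited expected counts of reads per gene region. Transcripts were matched by unversioned ID to GENCODE v44lift37 (97.7% of IDs, 97.2% to 97.4% of reads), summed per gene and rounded. Tests used edgeR 4.0.16 in R 4.3.3 (quasi-likelihood, TMM, filterByExpr) with Benjamini-Hochberg adjustment over all features, with calls made past the study's thresholds of 0.01 on the adjusted p and 0.6 on the log2 fold change. The SE is the log2 fold change's size divided by sqrt(F). WT and HMGB2 KD had 2 libraries each, and old was compared with young with isolate as covariate (1 residual degree of freedom). ICM ratios used genes at 1 CPM or more in at least 1 column. The fits were tested on simulated data with 200 features changed by 1.5 on the log2 scale. The gene fits recovered 80% (old against young) and 78% (knockdown) of them, and the transcript fit only 5%.

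The labels do not say that replicates came from separate cultures, so the knockdown p-values measure the spread between these libraries, which may be technical. In the old and young fit the isolates were the replicates, so its p-values rest on how far the change differed between isolates. Replicates differed by more than sampling noise, with a chi-square per degree of freedom of 24.7 (WT), 37.6 (HMGB2 KD) and 2.10 (ICM). Intervals are exact Clopper-Pearson intervals at 95% and cover counting error only, since reads carry no molecular identifiers. Promoters are from RefSeq (GRCh38.p14), with 9 of the 10 genes matched. Named genes were the 10 genes, LMNA and TMPO transcripts at 1% or more of their gene, called genes of the envelope list (at most 8 a comparison), lamin processing enzymes, HMGB2, and the 5 genes nearest to LMNB1. The genes and lists were chosen with earlier results of these data known. 1 of the 6 LMNA transcripts at 1% or more is not reported here. Alternatives were DESeq2 1.42.0, other scalings, filters and thresholds, and leaving out libraries.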

Additional observations from a re-analysis of the deposited data

Results flagged for a closer look

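4 of the 10 genes had log2 differences of opposite sign between old and young in the isolates (exact 95% counting intervals in parentheses). LMNA was at -0.11 (-0.16 to -0.067) in I79 and 0.10 (0.062 to 0.14) in I10, a difference of -0.22. EMD was at -0.12 (-0.24 to -0.0014) and 0.070 (-0.044 to 0.18), a difference of -0.19. SUN2 was at -0.052 (-0.15 to 0.045) and 0.10 (0.0045 to 0.19), a difference of -0.15. LEMD3 was at 0.13 (-0.059 to 0.31) and -0.11 (-0.30 to 0.067), a difference of 0.24. The interval spanned 0 for LEMD3 in both isolates, for EMD in I10 and for SUN2 in I79. Each isolate had 1 column a group, so that the difference was not tested. None of the 4 was called over both isolates.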

How the results depend on the processing

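LMNB1, TMPO, LMNB2, LBR and SUN1 kept their direction between old and young under every setting run, with log2 fold changes of -3.15 to -2.58, -2.17 to -1.84, -1.44 to -1.11, -1.38 to -0.98 and 1.06 to 1.47, each isolate alone included, and all but LBR (length-scaled TPM) stayed called in every fit. Plain library totals moved the median of all genes from -0.01 to -0.22, the genes called to 3132 from 1446, and the share of calls that were higher from 60.1% to 32.6%. In the knockdown plain totals moved that share from 55.0% to 44.3%. Genes called between old and young were 4265 without a filter and 3860 at an adjusted p under 0.05, and transcripts called were 3431 by DESeq2. The envelope list had 4 called without a filter or at 0.05 and 1 with protein coding transcripts only, against 2. Signs of uncalled genes turned for LMNA (0.0010 with DESeq2 size factors, 0.0017 without isolate, 0.0053 with protein coding transcripts), LEMD3 (-0.012 without a filter, -0.21 with plain totals), SUN2 (-0.19 with plain totals), EMD (0.053 with protein coding transcripts), and, in the knockdown, LMNB1 (-0.096 without WT replicate 2 to 0.015 without WT replicate 1, and 0.0013 without HMGB2 KD replicate 1) and LMNB2 (-0.14 without HMGB2 KD replicate 2 to 0.33 without HMGB2 KD replicate 1). The causes were not tested.

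Leaving out 1 knockdown library gave 0 to 1 of the 10 genes called, 0 to 1 of the envelope list and 312 (without HMGB2 KD replicate 2) to 999 of all genes. 1 factor of unwanted variation and plain library totals each gave 0 of the 10. With a replicate block 1 of the 10 genes, 1 of the envelope list and 1243 genes were called. Same-numbered libraries deviated with r = 0.124 over only 2 pairs, so the numbers were not taken to pair them. The LMNA shares changed by less than the spread between isolates when taken from TPM or over protein coding transcripts. In ICM the count past 0.6 was 5 to 7. With coding region reads only, the log2 ratio of LMNA was 0.079 and that of SUN1 0.12, both of the other sign than with all reads, and those of BANF1, LMNB2 and LEMD3 were -1.47, -1.96 and -0.47. With 2 libraries or isolates a group and 12 LMNB1 reads in ICM, small differences were not detectable at this depth.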
